A study of Homo sapiens with 6 samples.

Results

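A group of 10 genes of excitation-contraction coupling and of the muscle energy supply, RYR1, CACNA1S, CACNG1, STAC3, ATP2A1, CASQ2, SLN, TRDN, JSRP1 and CKM, were examined in Rh30 cells, an established line of fusion-positive rhabdomyosarcoma (FP-RMS), a soft tissue tumor whose cells resemble immature muscle. They were chosen by name, as the rows of the expression table with these symbols, and all 10 were among its 35268 named genes. Polyadenylated RNA was sequenced from 3 cultures exposed for 24 hours to 1 µM YK-4-279, a compound that blocks protein interactions of ETS transcription factors, and from 3 cultures exposed to its vehicle, DMSO. Both groups were the same line, grown in the same medium, so that neither donor nor genotype differed between them. The question was how treatment with the drug affected gene expression relative to the vehicle control.

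In skeletal muscle, an action potential spreads along the transverse tubules, where the voltage-sensing L-type calcium channel is mechanically coupled to the ryanodine receptor of the sarcoplasmic reticulum. Calcium released through this receptor triggers contraction, a calcium pump then returns it to the store, and creatine kinase rebuilds the ATP that pump and myosin consume. Many genes of this machinery are switched on in muscle differentiation after the myogenic transcription factors.

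The libraries held between 16724650 and 24677433 reads on named genes, and levels below are the deposited normalized counts, in which every library's reads had been scaled by its own size factor. DMSO replicate 1 had the fewest reads and stood apart, with a mean correlation of 0.989 with the other libraries across the genes tested, where the 5 remaining libraries had 0.992 or more, and with 6.05% of its reads on 13 mitochondrial genes, against 4.74% to 5.03%. Fold changes and family shares of the 10 genes are also given without it where they differed in call, in sign or by over 1.5 times. The muscle lineage of the cells was visible in the data. All 6 markers of that lineage (MYOD1, MYOG, DES, CHRNA1, CDH15 and MYMK) had a mean of at least 10 normalized counts, and their summed level was 70600 to 83590 in the DMSO libraries and 78130 to 81700 in the YK-4-279 libraries. Of 6 heart markers, 2 (NPPB and NKX2-5) reached that mean, with a summed level of 907 to 1103 in DMSO and 824 to 887 in YK-4-279 libraries, a sum made up mostly of NKX2-5 (means of 953 and 772, log2 fold change -0.30, limma adjusted p = 0.0539), while NPPB had means of 37.8 and 71.1 (1.10, limma adjusted p = 0.123). The other heart markers had few reads over all libraries, 52 for NPPA, 22 for TNNI3 and 1 each for MYH6 and MYL7. Of the smooth muscle and fibroblast markers 3 of 5 reached it, with PDGFRA the highest and a summed level of 375 to 502 in DMSO and 486 to 532 in YK-4-279 libraries. Of the endothelial markers 2 of 3 did, with sums of 33.4 to 46.0 and 38.0 to 48.0, and of the epithelial markers 1 of 3, EPCAM, with sums of 50.1 to 64.3 and 59.8 to 89.97, while KRT5 was at 0. None of 3 blood markers did, with HBB at 0 and PTPRC and CD3E at 1 read each. All libraries came from cultures of the same line, and which of its cells expressed these markers was not tested. None of the 6 muscle markers passed the threshold in limma, the lowest adjusted p being 0.0573, for MYMK, with a log2 fold change of 0.76. The labels do not say whether the 3 replicates were separate experiments, so that p-values measure the spread between these cultures alone.

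The 10 genes were expressed at widely different levels. Divided by the length of the canonical GENCODE transcript, STAC3 had the highest level, with a mean of 12340 normalized counts per kilobase, higher than in 99.5% of the 13705 genes tested with a known length. JSRP1 followed with 901.5, ATP2A1 with 233.2, RYR1 with 230.1 and CKM with 92.5 normalized counts per kilobase. CASQ2 and CACNA1S had only 5.49 and 4.53 normalized counts per kilobase, and SLN, CACNG1 and TRDN were at or near 0. In this order ATP2A1 and RYR1 overlapped (202 to 261 and 197 to 265 per kilobase over the 6 libraries), as did CASQ2 and CACNA1S, whereas each other step down to CASQ2 was larger than the spread over libraries.

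**Figure D1:**
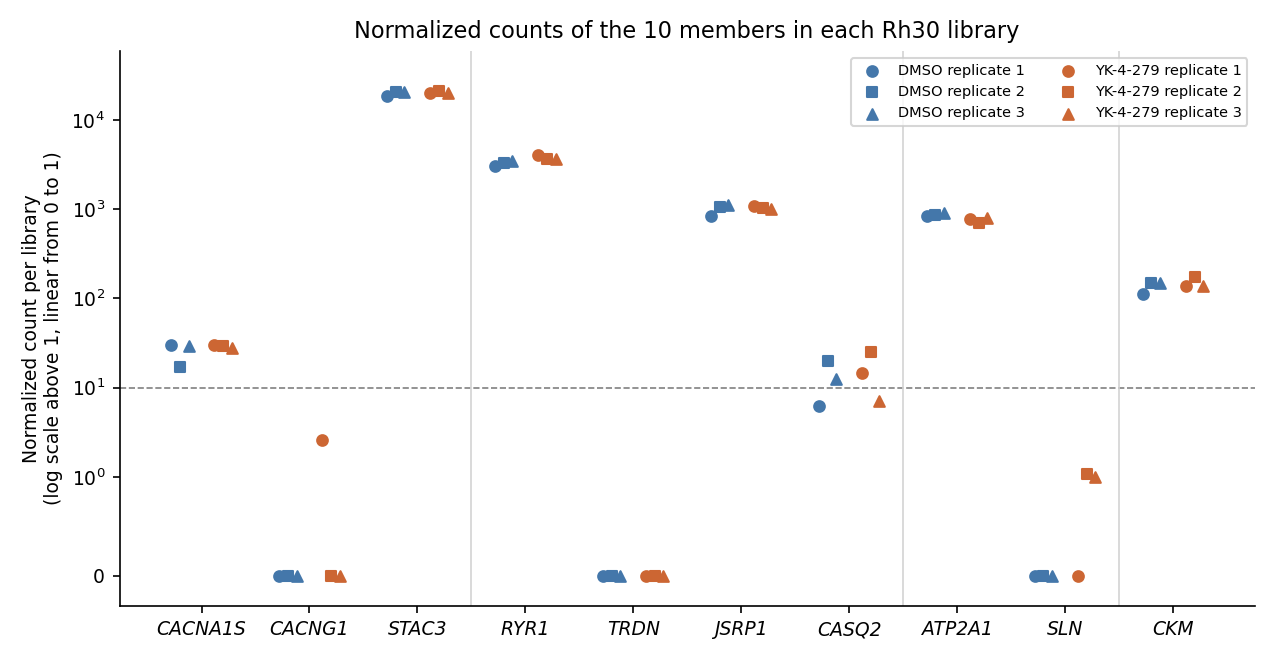
Normalized counts (vertical axis, logarithmic above 1 and linear from 0 to 1) of the 10 genes in each library, grouped by role from the voltage sensor on the left to creatine kinase on the right, with DMSO in blue, YK-4-279 in orange and one symbol per replicate number. STAC3 lies between 18612 and 21141, TRDN is at 0 in all 6, and the dashed line marks the mean of 10 that a gene needed to be tested.

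Of the 10 genes, 7 had a mean of at least 10 normalized counts and were tested, and none of them reached an adjusted p under 0.05 (limma), which 3.41% of all 13930 genes tested did, 1.26% as higher and 2.15% as lower with the drug. At an unadjusted p under 0.05 there were 2 of the 7, RYR1 and ATP2A1, against 18.7% of all genes tested. On the recovered reads, edgeR and DESeq2 gave 0 members at the adjusted threshold, where 3.34% and 4.47% of all genes passed, and 2 at the unadjusted one, where 18.4% and 15.2% did. These were also the only 2 of the 7 whose groups did not overlap, where 26% of all genes tested did not. In RNA of whole cultures, fewer cells that express a gene and less RNA per cell cannot be told apart. The estimate was above 0 for 6 of the 7 and below 0 for ATP2A1, with a median log2 fold change of 0.15, against -0.0075 over all genes tested. Of all 13930 genes tested, 6684 had an estimate above 0 and 7246 below 0. Without DMSO replicate 1 there were 3 estimates above and 4 below 0 with a median of -0.0082, and with trends on GC content and length removed there were 4 above and 3 below 0 with a median of 0.059. Without DMSO replicate 1, 2 of the 7, RYR1 and ATP2A1, passed against 13.1% of all genes tested. With trends on GC content and length removed, with or without a replicate block, 1 of the 7, ATP2A1, passed against 14.4%. The count was 0 in every other fit, where the share of all genes that passed was 3.4% and 3.52% with pseudocounts of 0.5 and 10, 2.04% with no filter on low means, 4.36% with a mean of at least 100, 3.02% with TMM scaling, 1.99% after quantile normalization, 0.237% under eBayes without trend, 1.29% with a replicate block, 4.85% and 1.74% without DMSO replicates 2 and 3, and 0.136%, 0.165% and 0.33% without YK-4-279 replicates 1, 2 and 3.

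The voltage sensor was represented by CACNA1S, CACNG1 and STAC3. CACNA1S, which encodes the pore-forming subunit of the L-type channel (Ensembl gene ENSG00000081248, chromosome 1 from 201039512 to 201112451 of hg38), had 30.3, 17.0 and 29.2 normalized counts in DMSO replicates 1, 2 and 3 and 29.99, 29.3 and 28.0 in YK-4-279 replicates 1, 2 and 3. The YK-4-279 libraries lay within the range of the DMSO libraries, whose spread came from replicate 2 with its 17 reads. The log2 fold change was 0.23 (standard error 0.27, 95% confidence interval -0.36 to 0.81, limma adjusted p = 0.690), 0.37 without DMSO replicate 1 and -0.030 without DMSO replicate 2, so that at 166 reads in all neither a decrease nor an increase of moderate size could be detected. CACNG1, the gamma subunit of the same channel (chromosome 17 from 67044554 to 67056797), had no read in 5 libraries and 3 reads in YK-4-279 replicate 1.

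STAC3, the adaptor protein that carries the L-type channel to the transverse tubule and couples it to the ryanodine receptor, spans bases 57243453 to 57251188 of chromosome 12. It had normalized counts of 18612, 20896 and 20496 in the DMSO replicates and 20391, 21141 and 20212 in the YK-4-279 replicates. The groups overlapped, with DMSO replicate 1 the lowest of the 6 libraries. Its log2 fold change was 0.043 (standard error 0.058, 95% confidence interval -0.083 to 0.17, limma adjusted p = 0.737), the narrowest interval among the 7 genes, and it fell below 0 without DMSO replicate 1 (-0.0082) and with trends on GC content and length removed (-0.036). Its mean level per kilobase was 2723 times that of CACNA1S, the channel it serves. Of the 2 nearest tested genes on each side, SHMT2 had 15690 normalized counts per kilobase and NDUFA4L2, R3HDM2 and INHBC had 275.3, 130.2 and 16.2. CDK4, which lies farther along the chromosome (from 57747727 to 57756013) and was chosen by name, had 26050, and the genes between INHBC and CDK4 were not examined. None of these 5 passed the threshold in limma (adjusted p from 0.323 to 0.999), and copy number was not measured here. STAC3 also overlaps another annotated protein-coding gene on the same strand, not analysed here, and how reads in the overlap were assigned is not stated.

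At the junction with the sarcoplasmic reticulum, RYR1 encodes the skeletal muscle calcium release channel (ENSG00000196218, chromosome 19 from 38433691 to 38595273). It had 3030, 3338 and 3479 normalized counts in the DMSO replicates and 4086, 3634 and 3695 in the YK-4-279 replicates. Each drug-treated library lay above each DMSO library, with DMSO replicate 1 the lowest and YK-4-279 replicate 1 the highest. The means were 3283 ± 229.8 and 3805 ± 245 (SD, n = 3 each), which is 0.21 on the log2 scale (standard error 0.069, 95% confidence interval 0.066 to 0.36), which did not pass the threshold (limma adjusted p = 0.109). The estimate was above 0 under each of 18 alternatives, with adjusted p-values from 0.0121 to 0.458. The lowest of these came without DMSO replicate 1, where the log2 fold change was 0.16, and with trends on GC content and length removed it was 0.073 (limma adjusted p = 0.247). The gene overlaps MAP4K1 on the opposite strand, which had a mean of 27.9 normalized counts.

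The other junctional proteins differed mainly in whether they were expressed at all. TRDN, or triadin, which anchors calsequestrin to the ryanodine receptor (chromosome 6 from 123216339 to 123637189), had 0 reads in all 6 libraries. Over 124033363 reads this allows up to 3 reads, counting error only. CASQ2, the cardiac and slow-fibre calsequestrin that buffers calcium in the store (chromosome 1 from 115700021 to 115768884), had 6.30, 19.99 and 12.5 normalized counts in the DMSO replicates and 14.6, 25.0 and 7.004 in the YK-4-279 replicates. These values rest on 5 to 23 reads and the groups overlapped throughout, with a log2 fold change of 0.21 (95% confidence interval -0.83 to 1.26, limma adjusted p = 0.852) that turned to -0.19 without DMSO replicate 1 or YK-4-279 replicate 2.

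JSRP1 encodes JP-45, a junctional protein that links the L-type channel with calsequestrin (ENSG00000167476, chromosome 19 from 2252252 to 2269759). It had 845, 1052 and 1112 normalized counts in the DMSO replicates and 1103, 1039 and 1005 in the YK-4-279 replicates. DMSO replicate 1 was far below the other 5 libraries, which overlapped. The log2 fold change was 0.073 (standard error 0.094, limma adjusted p = 0.721), and -0.046 without DMSO replicate 1. The gene overlaps OAZ1 on the opposite strand, which had a mean of 4847 normalized counts, and whether strand was used in counting is not stated, so that some of the reads of JSRP1 may belong to OAZ1.

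ATP2A1, which encodes SERCA1, the calcium pump of fast skeletal muscle (ENSG00000196296, chromosome 16 from 28878405 to 28904466), was the only tested gene of the 10 with an estimate below 0. It had 840, 861 and 911 normalized counts in the DMSO replicates and 769, 706 and 799 in the YK-4-279 replicates. All 3 drug-treated libraries were lower than the lowest DMSO library, although YK-4-279 replicate 3 and DMSO replicate 1 were close. The means were 871 ± 36.5 and 758 ± 47.5 (SD, n = 3 each), which is -0.20 on the log2 scale (standard error 0.075, 95% confidence interval -0.36 to -0.038), which did not pass the threshold (limma adjusted p = 0.174). It was below 0 under each of 18 alternatives and passed the threshold in 3 of them, without DMSO replicate 1 (-0.23, limma adjusted p = 0.0103) and with trends on GC content and length removed, alone (-0.28, limma adjusted p = 0.00718) or with a replicate block, while the adjusted p ranged from 0.00374 to 0.484 over the alternatives. The gene overlaps RABEP2 and the antisense transcript ATP2A1-AS1, with means of 295.0 and 24.1 normalized counts. SLN, or sarcolipin, a small membrane protein that inhibits this pump (chromosome 11 from 107707378 to 107719693), had no read in 4 libraries and 1 read each in YK-4-279 replicates 2 and 3.

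CKM, the muscle creatine kinase (ENSG00000104879, chromosome 19 from 45306413 to 45322875), had 111, 150 and 149 normalized counts in the DMSO replicates and 140, 175 and 139 in the YK-4-279 replicates. The groups overlapped, with DMSO replicate 1 again the lowest library. The log2 fold change was 0.15 (standard error 0.15, 95% confidence interval -0.17 to 0.47, limma adjusted p = 0.634). It was 0.0065 without DMSO replicate 1, 0.041 without YK-4-279 replicate 2 and 0.059 with trends on GC content and length removed.

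**Figure D2:**
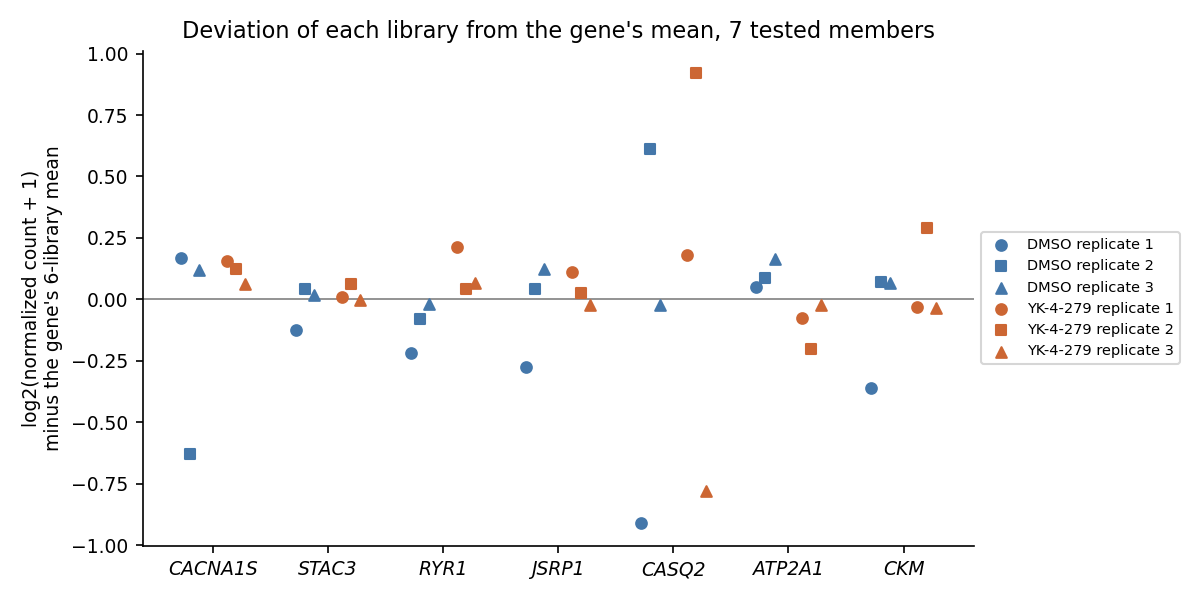
Deviation of each library from the mean of the 6 libraries (vertical axis, log2 of the normalized count plus 1) for the 7 tested genes, with DMSO in blue, YK-4-279 in orange and one symbol per replicate number. The blue circle, DMSO replicate 1, is the lowest DMSO library in 6 of the 7 genes, from -0.91 in CASQ2 upward, and the widest scatter belongs to CASQ2.

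DMSO replicate 1 was the lowest of the 3 DMSO libraries for RYR1, STAC3, ATP2A1, CASQ2, JSRP1 and CKM, that is for 6 of the 7 tested genes, against 39.5% of all genes tested. The difference that this library makes to each estimate can be read from the plot of fold changes. The transcripts of the 7 genes had a median GC content of 58.4%, against 48.5% over all genes tested, and the part of GC content in these differences was not tested beyond the removal of its trend.

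**Figure D3:**
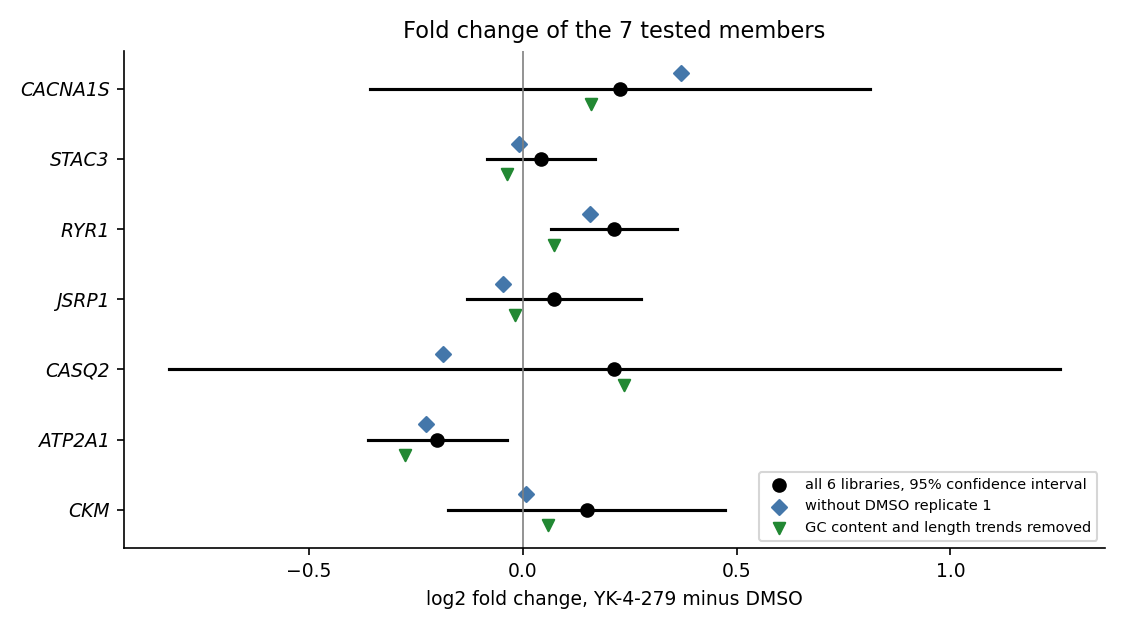
Log2 fold change of YK-4-279 minus DMSO (horizontal axis) of the 7 tested genes, with black points and lines for limma's estimate and 95% confidence interval over all 6 libraries, blue diamonds for the estimate without DMSO replicate 1 and green triangles for the estimate with trends on GC content and length removed. Only the intervals of RYR1, 0.066 to 0.36, and ATP2A1, -0.36 to -0.038, leave out 0, before adjustment over all genes.

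The 250 bases before the RefSeq start site were at hand for 6 of the 10 genes, with 2 starts for ATP2A1. They were searched for the E-box CANNTG, where N is any base, the pattern bound by MYOD1 and MYOG, and for GGAA, the core of ETS factor sites, on both strands. The windows of RYR1 and ATP2A1, whose estimates differed in sign, are shown with those of CKM, expressed at a moderate level, and TRDN, at 0, in lower case with each E-box in capitals. They are the plus strand of chr19:38433441-38433690 (RYR1) and chr16:28878238-28878487 (ATP2A1, first start) and the minus strand of chr19:45322876-45323125 (CKM) and chr6:123636951-123637200 (TRDN) of GRCh38.p14.
RYR1 promoter: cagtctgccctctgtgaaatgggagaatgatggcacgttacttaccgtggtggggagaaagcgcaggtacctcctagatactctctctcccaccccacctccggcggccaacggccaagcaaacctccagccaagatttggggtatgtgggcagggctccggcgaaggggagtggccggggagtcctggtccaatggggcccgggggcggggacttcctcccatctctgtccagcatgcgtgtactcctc
ATP2A1 promoter: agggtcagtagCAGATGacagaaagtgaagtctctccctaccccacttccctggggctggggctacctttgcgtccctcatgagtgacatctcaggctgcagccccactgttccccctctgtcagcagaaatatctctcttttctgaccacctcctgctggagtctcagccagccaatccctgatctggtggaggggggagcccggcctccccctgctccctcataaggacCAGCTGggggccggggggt
CKM promoter: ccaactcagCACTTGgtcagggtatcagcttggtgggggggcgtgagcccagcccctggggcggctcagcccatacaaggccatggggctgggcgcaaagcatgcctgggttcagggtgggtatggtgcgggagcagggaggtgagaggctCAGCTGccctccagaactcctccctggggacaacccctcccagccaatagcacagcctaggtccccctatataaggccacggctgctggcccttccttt
TRDN promoter: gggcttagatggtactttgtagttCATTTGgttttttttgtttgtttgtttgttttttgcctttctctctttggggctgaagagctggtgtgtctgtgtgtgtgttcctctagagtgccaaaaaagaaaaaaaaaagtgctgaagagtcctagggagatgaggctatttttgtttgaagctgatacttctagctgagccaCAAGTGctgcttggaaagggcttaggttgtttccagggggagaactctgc
The RYR1 window held 0 E-boxes, and those of ATP2A1, CKM and TRDN held 2 each, so that TRDN at 0 reads and CKM did not differ in this count. The windows of CACNA1S and CASQ2 held 1 each and the second start of ATP2A1 held 0. Over all 35116 such windows, 61.8% held at least 1 E-box. GGAA on either strand was found in 6 of the 7 windows, with 1 match in RYR1, 2 in the first start of ATP2A1, 1 in CKM and 3 in TRDN, and in 92.7% of all windows. A match describes letters in this window and does not show that a factor binds there.

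Several of these genes have a paralog that non-muscle, embryonic or heart cells use, and levels per kilobase were compared within each family. CKB, the brain-type creatine kinase, was the main form in Rh30 cells, with 1263 normalized counts per kilobase against 92.5 for CKM. The share of CKM was 5.34%, 6.58% and 6.39% in the DMSO replicates and 6.99%, 8.58% and 7.22% in the YK-4-279 replicates. The groups did not overlap, and the mean share was 1.49 percentage points higher with the drug (exact permutation test, two-sided, p = 0.10, the smallest that 3 against 3 allows, adjusted p = 0.40 over 4 families), and 1.11 points higher without DMSO replicate 1. CKB itself averaged 1911 ± 105 normalized counts in the vehicle and 1676 ± 38.4 in the YK-4-279 libraries (SD, n = 3), with a log2 fold change of -0.19 (limma adjusted p = 0.130).

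ATP2A2, or SERCA2, the pump of heart, slow muscle and non-muscle cells, likewise exceeded ATP2A1, with 1202 normalized counts per kilobase against 233.2. ATP2A1 made up 16.6% ± 0.916 of the summed level of ATP2A1, ATP2A2 and ATP2A3 in the vehicle and 15.4% ± 0.974 in the YK-4-279 libraries (SD, n = 3; exact permutation test, two-sided, p = 0.20, adjusted p = 0.40). The difference of -1.14 percentage points was -1.59 without DMSO replicate 1, -0.678 without DMSO replicate 3 and -0.631 without YK-4-279 replicate 2. Among ryanodine receptors RYR1 led, with 56.3% ± 2.07 and 58.0% ± 1.42 of the family (exact permutation test, two-sided, p = 0.40, adjusted p = 0.533). Its difference of 1.74 percentage points was 0.594 without DMSO replicate 1, 1.09 without YK-4-279 replicate 2 and 2.60 without DMSO replicate 2. RYR3, the form found beside RYR1 in developing muscle, had 158.1 normalized counts per kilobase, and RYR2, the heart form, had 13.9. The calsequestrins were both close to 0, with 7.37 normalized counts per kilobase for CASQ1, the fast muscle form, and 5.49 for CASQ2. No order between them could be read, since the share of CASQ2 ranged from 22.0% to 54.7% over the libraries (exact permutation test, two-sided, p = 0.80, adjusted p = 0.80). Its difference of -3.90 percentage points was -6.74 without DMSO replicate 1 or 3, 1.78 without DMSO replicate 2, -7.59 and -8.94 without YK-4-279 replicates 1 and 2, and 4.82 without YK-4-279 replicate 3.

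**Figure D4:**
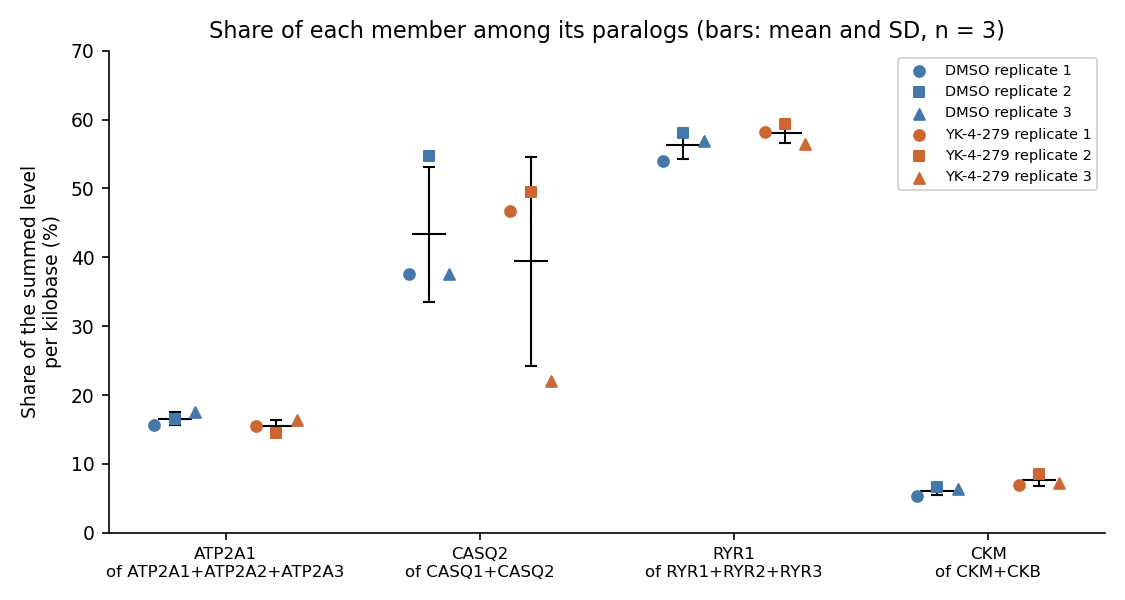
Share of ATP2A1, CASQ2, RYR1 and CKM in the summed level per kilobase of their families (vertical axis, percent), one point per library, with DMSO in blue and YK-4-279 in orange and black bars for the mean and SD of 3 libraries. CKM is below 9% in all 6 libraries, RYR1 above 50%, and the groups overlap for each family other than CKM.

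Of 45 other genes of the pathway, listed by role, 35 were tested and 3 passed the threshold, 1 higher and 2 lower, where 3.41% of all genes tested did. Around the release channel and the triad, 18 of 19 genes were tested, with 11 estimates above and 7 below 0 and a median of 0.095. TMEM38A, a potassium channel of the sarcoplasmic reticulum that balances the charge of released calcium, had 193, 229 and 225 normalized counts in the DMSO replicates and 305, 312 and 322 in the YK-4-279 replicates. It rose by 0.54 on the log2 scale (standard error 0.10, limma adjusted p = 0.0127), with each drug-treated library above each DMSO library. JPH1, or junctophilin 1, which ties the transverse tubule to the sarcoplasmic reticulum, had 559, 480 and 510 normalized counts in the DMSO replicates and 374, 411 and 380 in the YK-4-279 replicates. It fell by 0.41 on the log2 scale (standard error 0.089, limma adjusted p = 0.0247), with no overlap between the groups. FKBP1A, whose product binds the ryanodine receptor and which had the highest level per kilobase of this group (2112), had a log2 fold change of -0.24 (limma adjusted p = 0.0531).

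Of the creatine and adenylate energy genes, 7 of 9 were tested. GATM, the enzyme of the first step of creatine synthesis and the gene with the highest level per kilobase of this group (1432), had 4034, 3647 and 3661 normalized counts in the DMSO replicates and 2789, 3075 and 2971 in the YK-4-279 replicates. It fell by 0.36 on the log2 scale (standard error 0.064, limma adjusted p = 0.0103), and the groups were well apart. CKMT1A and CKMT1B, the ubiquitous mitochondrial creatine kinases, are near-identical copies whose counts are uncertain. None of the 5 tested genes of the voltage sensor and membrane excitation and none of the 5 tested genes of calcium re-uptake and entry passed the threshold in limma, at either the adjusted or the unadjusted level, which 3.41% and 18.7% of all genes tested passed, so that few or none of 5 would be called at those shares. Their members with the highest level per kilobase, the sodium channel gene SCN4A (163.4) and ATP2A2 (1202), had estimates of -0.011 and -0.072 on the log2 scale (limma adjusted p = 0.955 and 0.487). The calls of TMEM38A, JPH1 and GATM were each lost without YK-4-279 replicate 1, 2 or 3 (adjusted p from 0.0733 to 0.165), where 19, 23 and 46 genes of all those tested passed. The estimates in these fits were 0.52 to 0.56 for TMEM38A, -0.45 to -0.38 for JPH1 and -0.39 to -0.32 for GATM. The calls were also lost under eBayes without trend (adjusted p = 0.0825, 0.111 and 0.114), which leaves the estimates as they are. JPH1 also lost its call without DMSO replicate 3 (adjusted p = 0.0709) and with a replicate block (adjusted p = 0.0700).

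**Figure D5:**
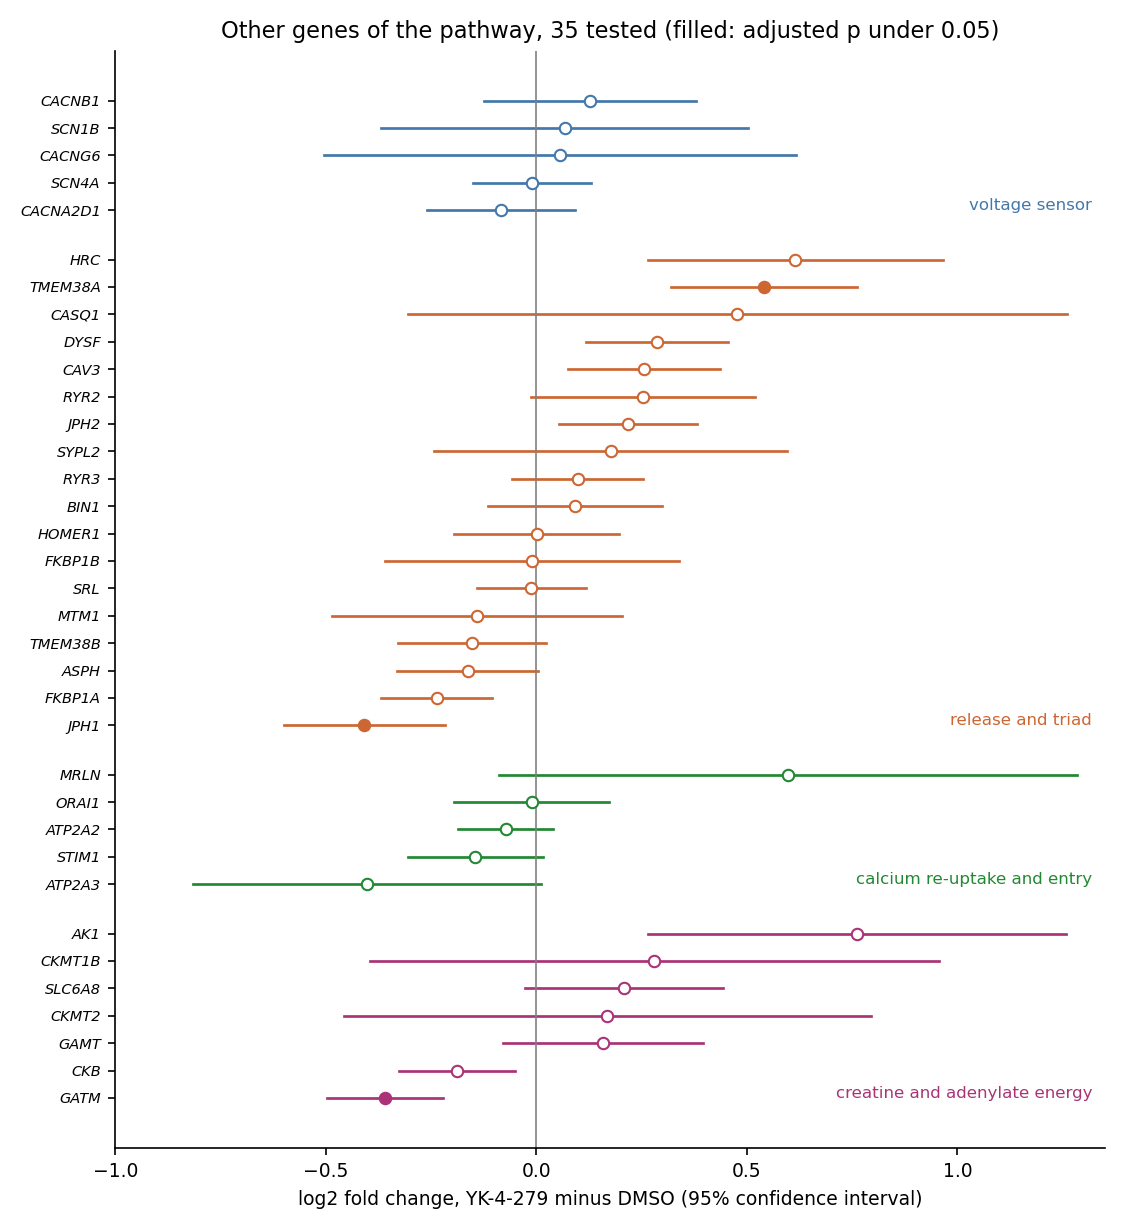
Log2 fold change of YK-4-279 minus DMSO (horizontal axis) with 95% confidence intervals for the 35 tested genes of the pathway outside the 10, colored by role and ordered by estimate within each role, with filled points for an adjusted p under 0.05. The filled points are TMEM38A at 0.54, JPH1 at -0.41 and GATM at -0.36.

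Over the 6 libraries, the genes whose log2 values were most correlated with those of the 3 of the 10 that had the highest normalized counts, not divided by length, were NUDT22, B3GNT9 and SPINDOC for STAC3 (Pearson's r = 0.997, 0.997 and 0.995), MBD1, ZNF607 and CALCOCO1 for RYR1 (0.995, 0.993 and 0.987), and MAMSTR, FBXW5 and CCDC9 for JSRP1 (0.995, 0.995 and 0.994). They were the top 3 for each gene among 10699 with a mean of at least 100, of which 649, 211 and 445 had an r above 0.9 with STAC3, RYR1 and JSRP1. With 6 libraries that share their scaling, these values describe likeness in this table only.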

How the data were processed

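Per the methods and the submitters' processing notes, the authors used BBDuk for trimming, STAR 2.7.9a with hg38 for alignment and DESeq2 1.44.0 for scaling and testing. The annotation is not given in the sources used here. The deposited values are a normalized signal, read counts divided by 1 factor per library, with no pooling. Of 35269 rows, 1 had no name and at most 6 reads per library and was left out. Each value was a whole multiple of its library's smallest value above 0 (within 0.01 reads), so that 100% of the values gave whole reads.

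The comparison used limma 3.58.1 under R 4.3.3 (lmFit, then eBayes with a mean trend), applied to log2(normalized count + 1) of 13930 genes whose mean over the 6 libraries was 10 or more, two-sided, with Benjamini-Hochberg adjustment over all of them. The pseudocount understates changes of genes with few reads. Because the values are not counts, edgeR 4.0.16 (quasi-likelihood) and DESeq2 1.42.0, run on recovered reads, were alternatives, although the study used DESeq2. Other alternatives were other pseudocounts, filters and scalings, eBayes without trend, removal of trends on GC content and length within libraries (mgcv 1.9.3, GENCODE transcripts, 98.4% of tested genes), a replicate block and leaving out each library. Code was tested on simulated data.

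The members and lists were chosen with earlier results of these data known. The genes named were the 10 members, and in each role of the pathway list the gene with the highest level per kilobase and every gene past the threshold, with the paralogs, the 3 genes most like each of the 3 members with the highest normalized counts, and STAC3's 2 nearest tested neighbours on each side and CDK4. The single markers, and the genes that overlap members, were named after their values were seen. CKMT1A and CKMT1B, from the creatine and adenylate energy list, were named outside these rules. Whether replicate numbers paired the libraries is not stated, and the main fit treated them as unpaired. Positions are on hg38 from GENCODE.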

Additional observations from a re-analysis of the deposited data

How the results depend on the processing

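None of the 7 tested members passed the threshold as reported. One member, ATP2A1, passed it with trends on GC content and length removed, with or without a replicate block, and across the fits that left out 1 library the number went from 0 to 2, the 2 being RYR1 and ATP2A1 without DMSO replicate 1. Of the pathway genes, 3 passed as reported, when 3.41% of all genes tested did. The count was 0 under eBayes without trend (0.237% of all genes), 6 under DESeq2 (4.47%), and 10 with trends on GC content and length removed, with or without a replicate block (14.4%). Across the fits that left out 1 library this count went from 0, without any one YK-4-279 replicate (0.136% to 0.33% of all genes), to 9, without DMSO replicate 1 (13.1%), with 6 without DMSO replicate 2 (4.85%). The members' median log2 fold change of 0.15 went from -0.0082 to 0.22 across these fits, and was 0.041 without YK-4-279 replicate 2.

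Estimates changed sign for STAC3 (-0.036) and JSRP1 (-0.017) with trends on GC content and length removed, with or without a replicate block, and for CASQ2 (-0.11) with quantile normalization. Across the fits that left out 1 library, STAC3 went from -0.0082 to 0.075, JSRP1 from -0.046 to 0.15, CKM from 0.0065 to 0.22, CASQ2 from -0.19 to 0.66 and CACNA1S from -0.030 to 0.37. The share of CASQ2 among calsequestrins, -3.90 percentage points as reported, went from -8.94 to 4.82, that of RYR1 among ryanodine receptors from 0.594 to 2.60, that of ATP2A1 among the pumps from -1.60 to -0.631 and that of CKM from 0.998 to 1.79. RYR1, CKM and ATP2A1 kept their sign in all 18 alternatives.

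Same-numbered libraries deviated from their group means with correlations of -0.0985, -0.0269 and -0.0267, so that no shared effect of the replicate number was visible. These values cannot show whether the libraries were paired, which the labels do not say. With a replicate block, 0 of 7 tested members and 2 of 35 tested pathway genes passed, where 1.29% of all genes tested did. The causes of these changes were not tested. CASQ2, CACNA1S, SLN, CACNG1 and TRDN each had 166 reads or fewer in all, which limits what their values can show.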
